A study of Mus musculus with 18 samples.

Results

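The genes described here encode the subunits, activators and assembly factors of the proteasome, among them Psmg1, a gene that Ts1Cje mice carry in 3 copies. They were chosen by name: every gene on the array whose symbol begins with Psma, Psmb, Psmc, Psmd, Psme or Psmg followed by a number, each represented by its brightest probe. This gave 47 of the 17711 named genes. Psmc3ip and Psme3ip1 met the rule as well, although they are not proteasome subunits. The tissue was the external granule cell layer, the sheet of proliferating granule cell precursors that covers the newborn cerebellum, taken from 9 Ts1Cje and 9 euploid mice at birth (P0). Ts1Cje mice have a segmental duplication of mouse chromosome 16 (Mmu16) from Sod1 to Znf295, together with a deletion of a short segment of Mmu12. They were bred from Ts1Cje males and wild-type females, so that all mice shared a mixed background of the B6 and C3 strains (B6EiC3SnF1/J A/a in the labels), and they were genotyped by PCR. There were 3 litters with 3 mice per genotype in each. Every mouse had its own Illumina bead array, and since a slide carried the 6 arrays of a litter, effects of slide and of litter cannot be told apart. A value below is a normalized log2 signal of 1 probe in 1 mouse, a difference is Ts1Cje minus euploid on the log2 scale, and a ratio is that difference converted back. Levels of different probes are not comparable with each other.

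The proteasome is the protease that degrades ubiquitinated proteins. Its 20S core is a barrel of stacked rings, the outer ones made of alpha subunits (Psma genes) and the inner ones of beta subunits (Psmb genes), which carry the proteolytic sites. The 19S particle caps the core: its base holds a ring of ATPases (Psmc genes) that unfold the substrate, and its lid removes ubiquitin. Psmd genes encode subunits of the lid, other subunits of the base and chaperones of the base. The activators PA28 and PA200 (Psme genes) can open the core in its place. Psmg1 encodes PAC1, an assembly chaperone that pairs with PAC2, the product of Psmg2, and helps the alpha subunits to form their ring. PAC3 and PAC4, from Psmg3 and Psmg4, act beside them as a second pair. Granule cell precursors divide rapidly at this age, and the degradation of cyclins and other cell cycle proteins by the proteasome is part of that division in all cells.

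Psmg1 was the only member found inside the three-copy segment. The 47 members lay on 16 chromosomes, and Psmd2, which encodes a subunit of the 19S base, was the only other one on Mmu16, outside the segment. The bases just before the start of Psmg1 are shown because this is the member whose expression differed between the genotypes, with those of its two-copy partner Psmg3 for comparison. Each line gives 150 bases before the RefSeq gene start, on the gene's strand (build GRCm38.p6), at chr16:95990961-95991110 for Psmg1 and chr5:139826895-139827044 for Psmg3, both on the minus strand. Capitals mark CGGAAG, the core of the sequence bound by transcription factors of the ETS family, searched on both strands.
Psmg1: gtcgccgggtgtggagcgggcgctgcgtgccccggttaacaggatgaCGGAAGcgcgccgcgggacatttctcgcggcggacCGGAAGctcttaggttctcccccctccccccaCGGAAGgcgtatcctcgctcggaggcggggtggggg
Psmg3: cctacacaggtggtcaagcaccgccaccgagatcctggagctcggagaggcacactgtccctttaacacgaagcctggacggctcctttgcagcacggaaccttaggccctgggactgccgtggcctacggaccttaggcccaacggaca
The stretch of Psmg1 held the motif 3 times, all on the gene's strand, with the first base 103, 68 and 36 bases before the start. That of Psmg3 held it 0 times, although 1 copy lies within the 50 bases after its start. A match describes the letters and does not show that a factor binds there.

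Of the members tested, Psmg1 was the only one to pass an adjusted p of 0.05 between the genotypes. Its log2 signal was 8.96 at the lowest, 9.33 at the median and 9.50 at the highest in the 9 euploid mice, and 9.67, 9.84 and 10.02 in the 9 Ts1Cje mice. Every Ts1Cje mouse therefore lay above every euploid mouse, with a gap of 0.17 between the groups. The difference was 0.51 (standard error 0.08), a ratio of 1.43 with a 95% interval of 1.28 to 1.59, and the adjusted p was 0.00143 (limma, Benjamini-Hochberg adjustment over the probes tested). Of all 11658 probes tested, 0.326% passed at an adjusted p under 0.05. An exact permutation test of the 18 values gave p = 4.1e-05, two-sided, the smallest that the 48620 ways of choosing 9 of 18 mice allow. The interval includes 1.5, the ratio of the gene copies.

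The 3 litters gave the same picture for Psmg1. In litter 1 the euploid mice had 9.42, 9.30 and 9.17 and the Ts1Cje mice 9.68, 9.84 and 9.74. In litter 2 they had 8.96, 9.33 and 9.41 against 10.02, 9.67 and 9.70. In litter 3 they had 9.50, 9.22 and 9.48 against 9.95, 9.998 and 9.85. The genotypes did not overlap within any litter, and the ratios were 1.37, 1.47 and 1.44. Permuting the genotypes within litters gave p = 0.00025 (exact, two-sided), the smallest that the 8000 arrangements allow. With litter as a block the adjusted p was 0.00047, and no difference of the genotype effect between litters was detected (adjusted p = 0.971, limma). With litter 1 left out the difference was 0.54 and the adjusted p rose to 0.0533, so the call was lost with those 6 mice against 6. The same mice with litter as a block, a fit chosen after the values were seen, gave an adjusted p of 0.0213.

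**Figure D1:**
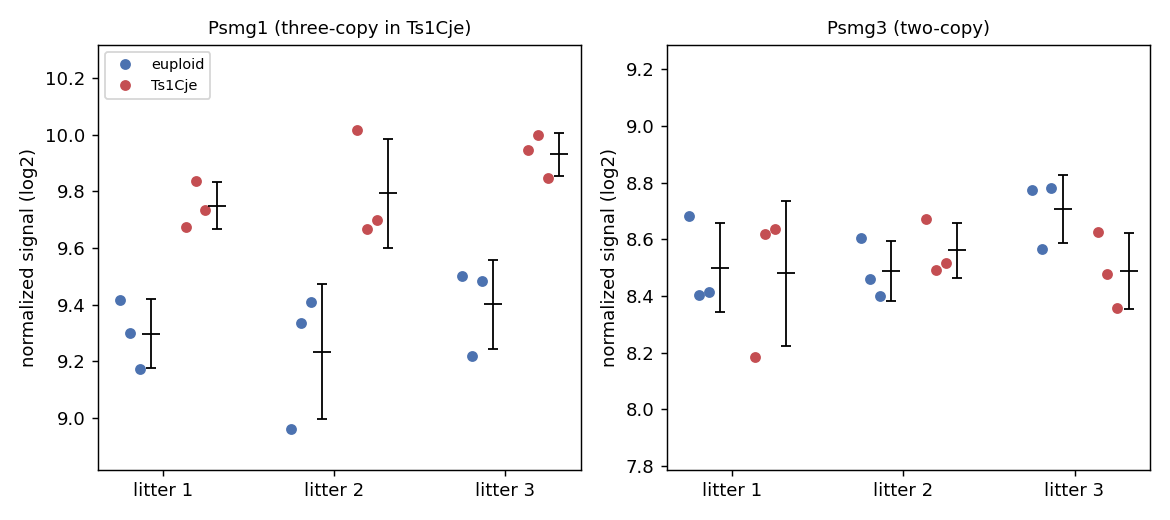
Normalized log2 signal of Psmg1 (left) and Psmg3 (right) in each mouse, by litter and genotype (blue euploid, red Ts1Cje), with the mean and SD of the 3 mice beside each group; both axes span the same range of log2 units. For Psmg1 the lowest Ts1Cje mouse has 9.67 and the highest euploid mouse 9.50, while the genotypes overlap for Psmg3.

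Among the 27 tested genes of the three-copy segment, the difference of Psmg1 ranked 7th, and the median of the others was 0.46. Its neighbours on either side were higher in Ts1Cje as well: the difference was 0.43 (adjusted p = 0.0174) for Brwd1, which encodes a bromodomain protein, and 0.58 (adjusted p = 0.00614) for the transcription factor gene Ets2. Hmgn1, a nucleosome-binding protein gene, had 0.36, which did not pass (adjusted p = 0.0619).

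Of the other assembly chaperones of the core, only Psmg3 could be tested, and it did not pass the threshold. It had 8.40, 8.57 and 8.78 as its lowest, median and highest value in euploid mice and 8.18, 8.52 and 8.67 in Ts1Cje mice, so that the groups overlapped over most of their range. Its difference was -0.06 (standard error 0.08), a ratio of 0.962 with an interval of 0.862 to 1.07 and an adjusted p of 0.997. Psmg4 was measured at 5.38 to 5.86 in all 18 mice, below the level at which probes were tested. Psmg2, which encodes the direct partner of PAC1, was not analysed here. Pomp, which encodes a maturation factor that acts after the PAC proteins, had a difference of -0.09 (standard error 0.08), a ratio of 0.941 (0.843 to 1.051).

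Of the 47 members, 35 were bright enough to be tested, which required a mean log2 signal among the brightest 25% of probes. Psmg1 was 1 of 35 past the threshold, and the only member with an unadjusted p under 0.05. At that unadjusted p, 3.15% of all probes tested were higher and 0.858% lower in Ts1Cje. With litter as a block Psmg1 was again the only member under 0.05, against 7.2% of all probes. Of the other 34 members, 10 were higher and 24 lower in Ts1Cje, with a median difference of -0.02, and the median over all genes tested was 0.00. The 95% interval included a ratio of 1 for all 34. Its upper bound lay under 1.5 for all 34, the highest being 1.34 for Psmd5, and the lowest of the lower bounds was 0.752 for Psmb5. For 27 of them the whole interval lay between a 1.2-fold decrease and a 1.2-fold increase.

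**Figure D2:**
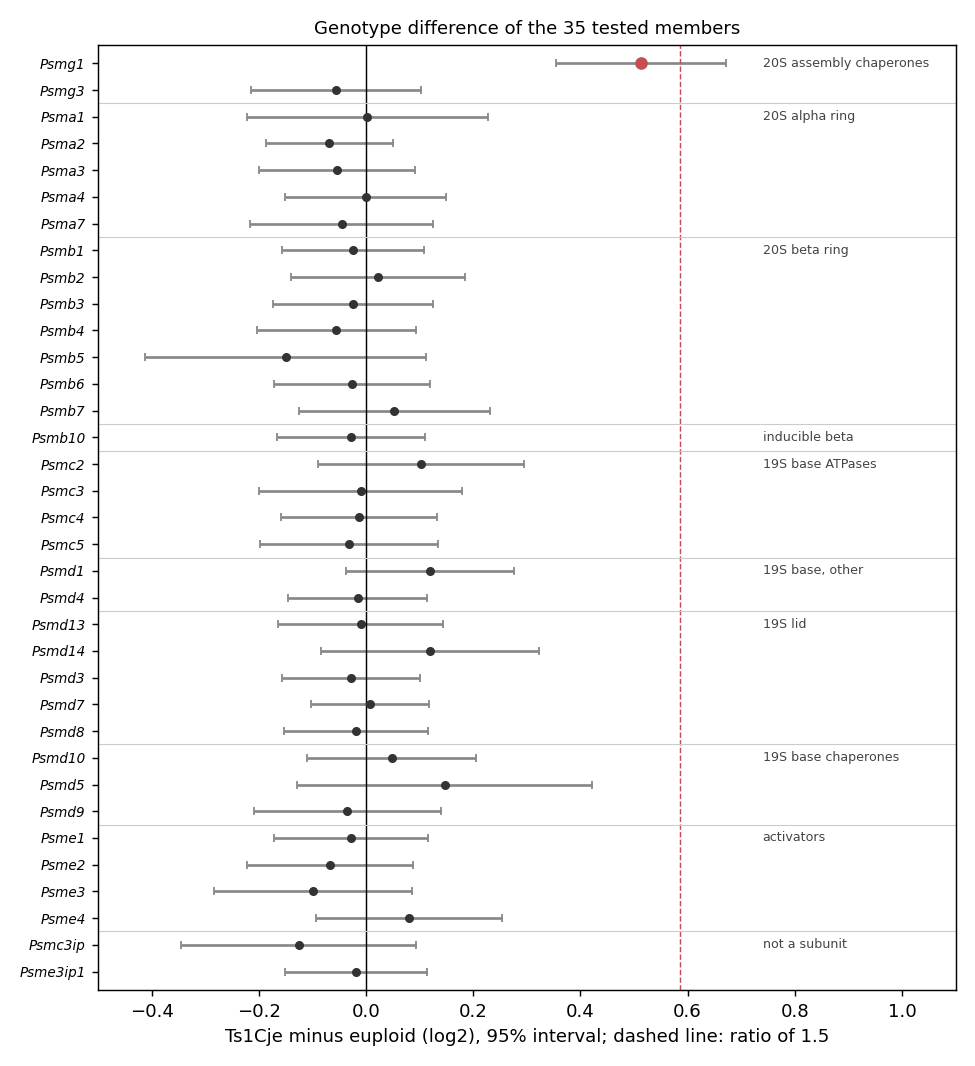
Ts1Cje minus euploid difference (log2) of the 35 tested members with the 95% interval of the limma fit over 9 mice against 9, grouped by their place in the proteasome; the dashed line marks a ratio of 1.5. Psmg1 (red, 0.51) stands apart from the other 34, whose intervals all include 0 and end below the dashed line.

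Of the 8 genes of the alpha ring, 5 were tested and none passed the threshold. Psma1, Psma2, Psma3, Psma4 and Psma7 had differences from -0.07 (Psma2) to 0.00 (Psma1), and 4 of the 5 were negative. Psma2 had 12.58, 12.81 and 12.93 as the lowest, median and highest euploid value and 12.53, 12.71 and 12.83 in Ts1Cje, a ratio of 0.954 (0.878 to 1.03). Psma5 and Psma6, whose products are part of every core, had means of 5.95 and 5.82 and were not tested, as was Psma8 (5.78), the alpha subunit gene of the testis. A dim probe here describes that probe and does not show that the transcript was missing.

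All 7 constitutive genes of the beta ring were tested, and none passed the threshold. The catalytic subunits are encoded by Psmb5 (chymotrypsin-like activity), Psmb6 (caspase-like) and Psmb7 (trypsin-like). Psmb5 had the lowest difference of all members, -0.15 (standard error 0.13), a ratio of 0.901 with an interval of 0.752 to 1.08. Its values ran from 10.37 over a median of 10.92 to 11.35 in euploid mice and from 10.30 over 10.74 to 10.93 in Ts1Cje mice, and the 3 highest euploid values lay above every Ts1Cje mouse. Without litter 2 the difference of Psmb5 was -0.33 (adjusted p = 0.950). Psmb6 had -0.03 and Psmb7 0.05. Psmb1, Psmb2, Psmb3 and Psmb4 lay between -0.06 and 0.02. Of the variant beta subunits, Psmb10, which replaces a catalytic subunit under interferon, had a ratio of 0.981 (0.891 to 1.08). Psmb9, also interferon-inducible, had a mean of 5.78 and the thymic Psmb11 one of 5.98, and neither was tested. The 5 interferon response genes that had a probe, such as Irf1 and Ifit1, were all below the filter as well.

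The 19S particle showed no member past the threshold among the 11 subunit genes tested. In the base, the ATPase genes Psmc2, Psmc3, Psmc4 and Psmc5 had differences between -0.03 and 0.10. Psmd1, which encodes the large scaffold subunit of the base, had 0.12 (standard error 0.08), a ratio of 1.09 (0.974 to 1.21), with values from 12.26 over 12.67 to 12.72 in euploid and from 12.50 over 12.70 to 12.88 in Ts1Cje mice. Psmd4, the gene of a ubiquitin receptor, had -0.02. In the lid, Psmd14, the gene of the deubiquitinase that releases ubiquitin from substrates, had 0.12 (standard error 0.10), a ratio of 1.09 (0.943 to 1.25). It was one of 4 tested members other than Psmg1 whose difference had the same sign in all litters (0.04, 0.10 and 0.21). Psmc3ip, Psmd3 and Psmd9 were the others, and each was lower in Ts1Cje in all litters. The share of all genes tested with the same sign throughout was not counted. The groups of Psmd14 overlapped, from 8.38 to 8.88 in euploid and from 8.44 to 9.18 in Ts1Cje mice. The other lid genes tested, Psmd3, Psmd7, Psmd8 and Psmd13, lay between -0.03 and 0.01.

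None of the 3 chaperones of the base and the 4 activators passed the threshold. Psmd5, whose product holds ATPases apart during assembly of the base, had the highest difference after Psmg1, 0.15 (standard error 0.13), a ratio of 1.11 (0.915 to 1.34). That difference came from litter 2, where the Ts1Cje mice had 8.14, 7.70 and 8.11 against 7.38, 7.88 and 7.08 in euploid mice, a difference of 0.54, while litters 1 and 3 gave -0.04 and -0.05. Psmd10 (gankyrin) had 0.05 and Psmd9 -0.04. The PA28 genes Psme1, Psme2 and Psme3 had -0.03, -0.07 and -0.10, and Psme4, which encodes PA200, had 0.08, a ratio of 1.06 (0.937 to 1.19). Of the genes that share only the name, Psmc3ip, which acts in meiotic recombination, had -0.13 (ratio 0.916, 0.787 to 1.07) and Psme3ip1 -0.02.

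Other genes of the pathway were read from a list of 33, of which 23 had a probe and 18 were tested. None passed the threshold and none had an unadjusted p under 0.05. Their median difference was -0.01, and they ranged from -0.09 (Pomp) to 0.16 for Uba6, the gene of a ubiquitin-activating enzyme (ratio 1.12, 0.950 to 1.32). Nfe2l1, the transcription factor gene known for raising proteasome gene expression when the proteasome is inhibited, had -0.01 (standard error 0.07), a ratio of 0.992 (0.893 to 1.1004). The lid subunit gene Sem1 had -0.03, Psmf1, the gene of a proteasome inhibitor, -0.07, and the deubiquitinase genes Uchl5 and Usp14 had 0.07 and -0.06. Vcp, which encodes the ATPase that extracts ubiquitinated proteins, had 0.00.

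Level filtering left 12 members untested, and these include both close misses and probes near the floor of the array. Just inside the limit, a mean log2 signal of 7.07, lay Psmc2 at 7.13 and Psmd9 at 7.14. Just outside lay Psmd2 at 7.06 and Psmd12 at 6.86. Psmd2, the two-copy member on Mmu16, ranged from 6.58 to 7.36 in euploid and from 6.55 to 7.43 in Ts1Cje mice, a difference of 0.10 with an interval of -0.14 to 0.34. Fitted together with all probes, none of the 12 passed the threshold or an unadjusted p of 0.05.

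Psmc1, an ATPase gene of the base, was dim on average but not in every mouse. It reached 9.14 in 1 euploid and 9.02 in 1 Ts1Cje mouse of litter 1 and 7.82 in 1 Ts1Cje mouse of litter 3. The other 15 mice lay between 5.87 and 6.37. The 3 high mice belong to both genotypes, and the genotype difference of 0.27 (ratio 1.21) had an interval from 0.637 to 2.30 as a ratio. They were not high for the ATPase gene Psmc3, with 11.34, 10.81 and 11.34 in the same order, where all mice ranged from 10.81 to 11.58.

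**Figure D3:**
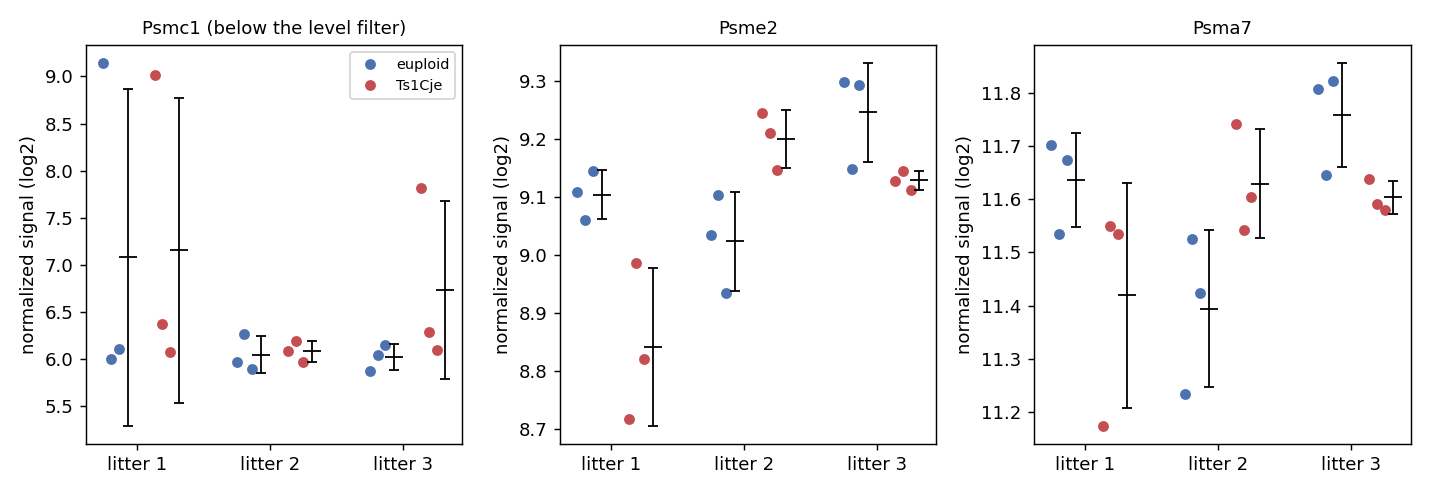
Normalized log2 signal of Psmc1, Psme2 and Psma7 in each mouse, by litter and genotype (blue euploid, red Ts1Cje), with the mean and SD of the 3 mice beside each group; each panel has its own log2 axis. Psmc1 is high in 3 mice (9.14, 9.02 and 7.82) and between 5.87 and 6.37 in the others, and for Psme2 the order of the genotypes in litter 2 is the reverse of that in litters 1 and 3.

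More members passed the test between litters than between genotypes. Litter 3 had the highest mean for 31 of the 35 tested members and litter 2 the lowest for 23, and litter 1 was lowest for the other 12. Over all genes tested, litter 3 was highest for 53.5% and litter 2 lowest for 48.4%. At an adjusted p under 0.05, 5 of 35 members differed between litters (limma). The share was 28.3% of all probes and 25.7% of all genes tested, so that calls were no more frequent among the members. The 5 members were Psmc3ip, Psma1, Psmd13, Psmd10 and Psmb2. Psma1 had litter means of 11.28, 11.45 and 11.69 in litters 1, 2 and 3 (adjusted p = 0.0133). Psmd13 had 12.37, 12.24 and 12.50 (adjusted p = 0.0240), and Psmd10 8.75, 8.73 and 8.97 (adjusted p = 0.0324). Psmb2 had 11.73, 11.54 and 11.78 (adjusted p = 0.0444). The lowest p belonged to Psmc3ip, which is no subunit, with 9.11, 9.16 and 9.52 (adjusted p = 0.00222). Without the 2 euploid arrays of litter 2 whose source label names cerebellum, only Psma1 and Psmc3ip passed, against 24.6% of all genes tested. With quantile normalization 6 of 35 members passed, against 31.9% of all genes tested. They were Psma1, Psmd10 and Psmc3ip again and Psmc2, Psmc3 and Psme2 besides. Litter 3 was then highest for 25 of 35 members and for 43.8% of all genes.

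**Figure D4:**
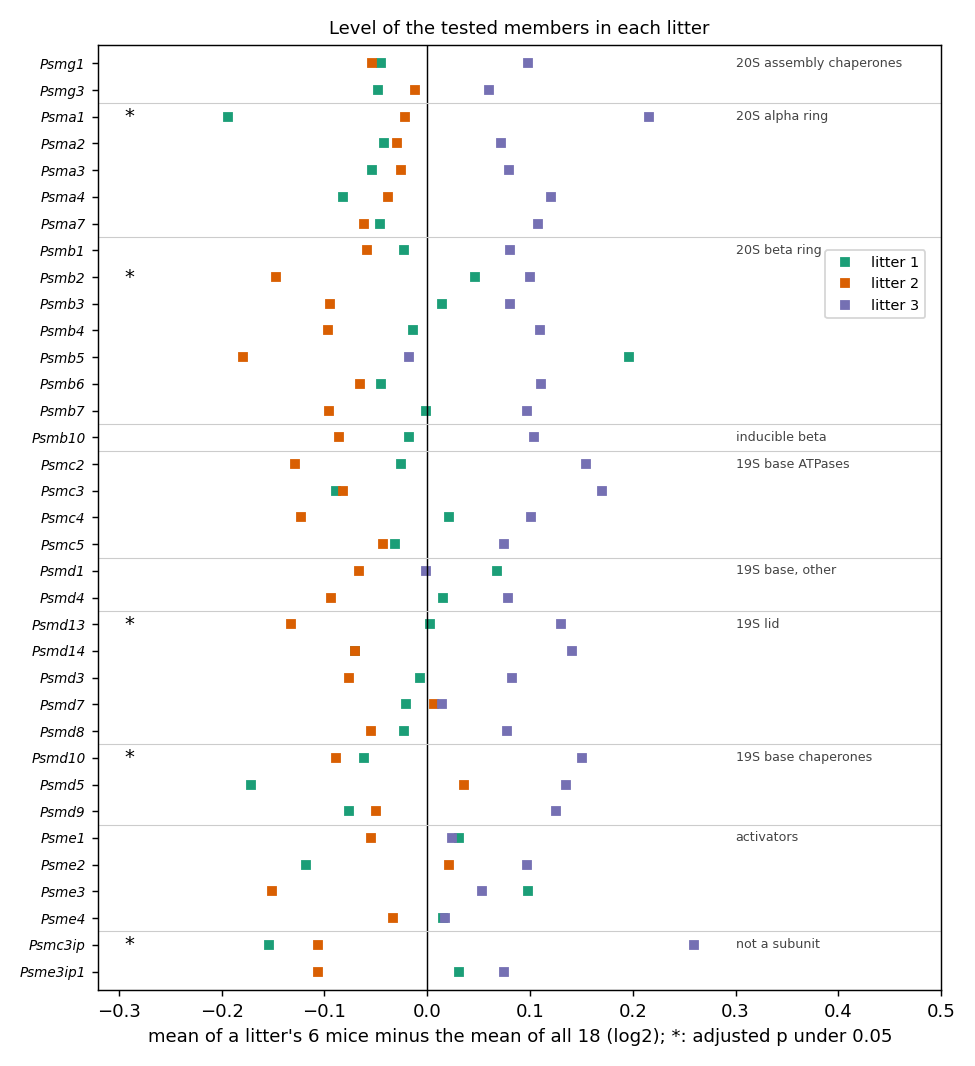
Mean log2 signal of each litter's 6 mice (green, orange and violet squares for litters 1, 2 and 3) minus the mean of all 18 mice, for the 35 tested members grouped by their place in the proteasome; stars mark the 5 members with an adjusted p under 0.05 between litters. Litter 3 is the highest for 31 of the 35 members.

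Within litters the genotype difference of the 34 other members leaned one way in litter 1 and the other in litter 2. In litter 1 only 2 of the 34 were higher in Ts1Cje (median difference -0.12), in litter 2 30 of 34 (median 0.11) and in litter 3 13 of 34 (median -0.02). The whole array leaned in the same directions, less far: 33.1%, 68.9% and 46.9% of all genes tested were higher in Ts1Cje in litters 1, 2 and 3, with medians of -0.06, 0.06 and -0.01. This lean depended on the scaling of the arrays. With quantile normalization 7 and 20 of the 34 members were higher in Ts1Cje in litters 1 and 2, and 40.7% and 42.4% of all genes. With a common median for all arrays the counts were 2 and 33, and 30.7% and 75.5% of all genes. Without the arrays labelled cerebellum, which leaves 1 euploid mouse in litter 2, the count there was again 30 of 34 with a median of 0.18, and 82.4% of all genes were higher. The array whose log2 signals had the smallest spread (SD 1.46, against up to 1.63) was that 1 euploid mouse left in litter 2. It also had the lowest mean over all genes tested (8.996), so this count rests on a comparison with that array alone. The part of its spread in the lean was not tested.

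**Figure D5:**
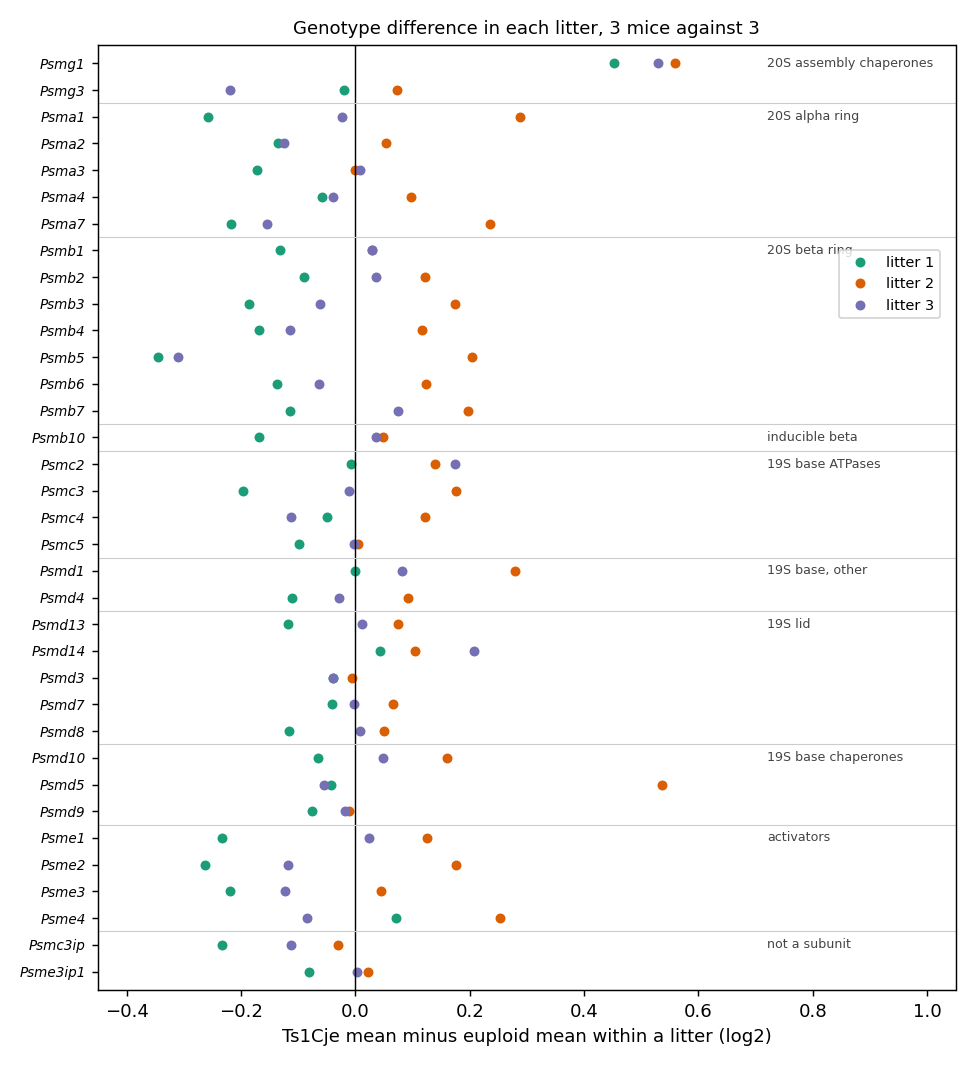
Ts1Cje mean minus euploid mean (log2) within litter 1 (green), litter 2 (orange) and litter 3 (violet), 3 mice against 3, for the 35 tested members grouped by their place in the proteasome. Psmg1 lies between 0.45 and 0.56 in all litters, while most other members are below 0 in litter 1 and above 0 in litter 2.

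No member passed a test of whether its genotype difference differed between litters (0 of 35 at an adjusted p under 0.05, limma). By the brightest probe, 3 had an unadjusted p under 0.05: Psme2, Psma1 and Psma7. This compares with 7.93% of all probes tested and 460 of 7290 genes tested. Psme2, the gene of a PA28 subunit, had 9.11, 9.06 and 9.14 in the euploid and 8.72, 8.99 and 8.82 in the Ts1Cje mice of litter 1. In litter 2 it had 9.03, 9.10 and 8.93 against 9.24, 9.21 and 9.15, and in litter 3 9.30, 9.15 and 9.29 against 9.13, 9.15 and 9.11. The difference of Psme2 in litter 2 was opposite in sign to those in litters 1 and 3. It was -0.26, 0.18 and -0.12 in litters 1, 2 and 3 (adjusted p = 0.620 for the interaction, limma). In litter 2, 68.9% of all genes tested were higher in Ts1Cje too. Psma1 had differences of -0.26, 0.29 and -0.02 and Psma7 of -0.22, 0.24 and -0.15 in litters 1, 2 and 3, both with an adjusted p of 0.620. For Psma7 the lowest of all 18 values, 11.17, was that of 1 Ts1Cje mouse of litter 1.

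Several probes of one gene did not always give the same sign. Of the 9 members with more than 1 tested probe, 6 had probes that disagreed in sign: Psmb3, Psmb7, Psmb10, Psmc5, Psmd13 and Psme1. Psmb3 had -0.02 and 0.08 (standard errors 0.07 and 0.07), and Psmc5 -0.03 and 0.09 (standard errors 0.08 and 0.11). The choice of probe mattered for the test of whether the genotype difference varied between litters (unadjusted p, limma). The second probe of Psmc5 had 0.00626, where the brighter one had 0.845. That of Psmd13 had 0.0226 against 0.393, and the dimmer probes of Psmb7 had 0.0299 and 0.0349 against 0.287. None of these probes passed after adjustment. Psmg1 had 1 probe.

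Short motifs were counted in the RefSeq windows from 250 bases before to 50 after the start, on both strands, to describe what the members' promoters share. Such windows were given for 40 of the 47 members and for 5981 of the genes tested. Among all genes, 27025 had a window. CGGAAG was present for 24 of the 40 members (60%) and 18.8% of all genes, and for 16 of the 29 tested members (55.2%) and 37% of the tested genes. TGANNNNGC, where N is any base, is a loose form of the core of the element bound by Nfe2l1 and Nfe2l2. It was present for 24 members (60%) and 45% of all genes, and for 58.6% of the tested members and 48.1% of the tested genes. The GC box GGGCGG was present for 24 members (60%) and 38.2% of all genes, but for 58.6% of the tested members against 71.6% of the tested genes. CCAAT, the box bound by NF-Y, was present for 16 members (40%) and 41.1% of all genes, and for 41.4% of the tested members and 44% of the tested genes. TGANNNNGC was found in the window of Psmg1 1 time, and CCAAT and GGGCGG 0 times. Copies of different motifs may overlap.

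Cell markers put the members' values in context. Of the granule cell precursor markers, Zic1 and Pax6 were bright (means of 12.8 and 12.0), whereas Atoh1, which defines these precursors, was near the floor of the array at 5.69. None of the 6 precursor markers tested had an unadjusted p under 0.05 between genotypes. Markers of some other cells leaned towards Ts1Cje. All 7 endothelial markers tested were higher (2 at an unadjusted p under 0.05), all 3 meningeal ones (2 under 0.05) and 3 of 4 astroglial ones (1 under 0.05), none at an adjusted p under 0.05. Aqp4, an astroglial water channel gene, had a difference of 0.65 and the endothelial Vwf one of 0.52, both higher in Ts1Cje in all 3 litters, and these passed with litter as a block (adjusted p = 0.00159 and 0.0204, limma). The astroglial Slc1a3 had -0.01, and of the Purkinje cell markers 1 of 3 was higher. The linear signals of the tested markers, summed in each mouse, ran from 2896 over a median of 3734 to 5105 in euploid and from 3031 over 3975 to 7048 in Ts1Cje mice for endothelial cells. For the meninges they ran from 1148 over 1565 to 4764 and from 1448 over 4173 to 10415, and for astroglia from 13395 over 15437 to 18561 and from 13961 over 16884 to 19002. The groups overlapped for each of the 3 lists. Whether these cells had a part in the members' values was not tested. In tissue RNA a lower share of a cell type and less RNA per cell cannot be told apart. For 2 euploid arrays of litter 2 the source label reads cerebellum, although the tissue label gives the external granule cell layer. Without them the difference of Psmg1 was 0.53 and Psmg1 was still the only member past the threshold.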

How the data were processed

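RNA of the external granule cell layer of 18 mice was amplified, labelled and hybridized by the authors to Illumina Mouse-6 bead arrays; the mean bead signals were normalized with the arrays' mean signals, and the deposited values are log2 signals (array means of 6.69, SD 1.46 to 1.63). Probes took their symbol from the platform annotation, updated through the Entrez identifier (29921 of 29976 probes with 1 symbol matched). The 11658 brightest of the 46632 probes were tested with the functions lmFit and eBayes of limma (version 3.58.1, R 4.3.3; 9 against 9 mice, no term for litter), with Benjamini-Hochberg adjustment over all of them at 0.05. Litters were compared with a term for genotype, and the interaction in a fit with both. A single value was also tested by exact permutation. The number of arrays limits the precision. The scripts were tested on simulated data. Array pairs correlated at 0.981 to 0.995 and 0 held identical values. After removal of the genotype means, mice of a litter correlated at 0.26 and mice of different litters at -0.19. Replicate numbers follow the order of the samples and pair no mice.

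Members and gene lists were chosen with earlier results of these data known. Named in full are the Psmg genes, members with an unadjusted p under 0.05, the 3 highest and 3 lowest differences, the 5 lowest p between litters, the 3 lowest for the interaction, and members whose probes disagree. Psmc1 and the values of other members were added after they were seen. One gene whose symbol meets the rule is not reported here. Alternatives were quantile normalization, a common median, other limits on dim probes (none, 8000 or 15000 brightest), litter as a block, leaving out litters or arrays, background subtraction (percentile 5 of an array), the mean over a gene's probes, and the methods' t-test on linear signals. Plots were made with Python 3.11.15 and matplotlib 3.10.9.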

Additional observations from a re-analysis of the deposited data

Results flagged for a closer look

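In 9 of 94 groups of 9 mice, 1 mouse lay apart from the rest of its genotype by Dixon's test; chance gives about 1 in 20. The same Ts1Cje mouse of litter 1 was low for 3 subunits of the core, with 11.17 for Psma7, 11.71 for Psmb3 and 12.25 for Psmb6. Its array was low more widely. Among the Ts1Cje mice it had the lowest mean over the tested members other than Psmg1 (10.59) and over all genes tested (9.07). Its log2 signals also had the smallest SD of that group (1.52). Psmb7 was high, at 12.49, in 1 Ts1Cje mouse of litter 3, and Psmd9 was high, at 7.49, in 1 euploid mouse of litter 3. The others were dim probes that were not tested: Psmb11 with 5.69 in 1 Ts1Cje mouse of litter 1, Psmd11 with 6.31 in 1 Ts1Cje mouse of litter 3, Psmg4 with 5.86 in 1 euploid mouse of litter 2, and Psmc1 with 9.14 in 1 euploid mouse of litter 1.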

How the results depend on the processing

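Psmg1 was higher in Ts1Cje under every alternative run, with differences from 0.48 (without the 2 euploid arrays of smallest spread) to 0.55 (with background subtraction). Its adjusted p passed in all of them but 1: without litter 1 the difference was 0.54 with an adjusted p of 0.0533, and 0 members passed. Over the 3 litters left out in turn the difference ranged from 0.49 to 0.54 and the count of members past the threshold from 0 to 1. With litter as a block as well, fits chosen after the values were seen, the adjusted p was 0.0213, 0.00767 and 0.0492 without litters 1, 2 and 3. Its ratio lay between 1.39 and 1.46 and so below 1.5, and no alternative that gave a test found it different from 1.5. None of the other 34 members passed under any alternative. None moved by more than its SD between mice, which is a wide limit for a difference of group means. Signs of differences did change: without litter 1 Psma7 went from -0.05 to 0.04, and without litter 2 Psmd5 went from 0.15 to -0.05. At an unadjusted p under 0.05, Psmd1 appeared with quantile normalization (difference 0.13), Psme3 without the 2 euploid arrays of smallest spread (-0.19), and Psma7 (-0.19), Psmb5 (-0.33) and Psme2 (-0.19) without litter 2, joined there by Psma2 (-0.13) and Psmc3ip (-0.17) with litter as a block. Between litters, 8 of 47 members passed with no filter on dim probes, against 13.3% of all genes. Without the arrays labelled cerebellum 2 of 35 passed, against 24.6% of all genes. The main fit had 5 of 35 and 25.7%. Detection p-values were not used, so the filter on dim probes is a rank and not a test of signal over background. Single mice could not be paired, because replicate numbers were given in sample order and pair no mice. The matching of genotypes within litters was used in the fits with litter as a block and, for Psmg1, in the permutation within litters.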
